A study of Mus musculus and Rattus norvegicus with 43 samples.

Results

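Mice given either of 2 miRNAs against Taf1 were compared with mice given a control miRNA, in RNA of the striatum, and the genes of interest are those that lay on the same side of the control in both miRNA groups. The comparison used 20 of the 43 libraries of a study of mouse and rat striatum, and 20 of its 22 mouse libraries. All animals were C57BL/6 mice injected at postnatal day 0, whose striatum was taken from 1 hemisphere at 4 months of age. A control miRNA had been given to 8 of them, the C/N-TAF miRNA, aimed at the canonical and the neuronal form of Taf1 alike, to 4, and the N-TAF miRNA, aimed at the neuronal form, to 8. Another C/N-TAF library, number 2, was left out because its counts depended on transcript length, and 1 mouse library whose label names no injection was not used. The vector that carried the miRNAs is not given in the labels used here.

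Taf1 encodes the largest subunit of TFIID, the complex that recognises core promoters and helps RNA polymerase II to start transcription. N-TAF is the form that carries a neuron-specific microexon, and reduced TAF1 expression is a feature of X-linked dystonia-parkinsonism, a human disease of the striatum. The striatum consists mainly of spiny projection neurons with a few classes of interneurons, glia and a dense capillary bed of endothelial cells wrapped by pericytes, and it lies beside the ventricle wall, where ependymal cells, choroid plexus and dividing neuronal precursors are found. Background of this kind is not a result of these data.

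The libraries held 24.9 to 35.6 M (mega) counts each. Spiny projection neuron genes stood high in every group, with a mean of 2062 CPM (counts after scaling to equal library totals) in controls for Adcy5, the adenylyl cyclase of these neurons. Libraries differed in ways the groups do not explain. Xist, a transcript of the inactive X chromosome, was at 1066 CPM or more in 3 libraries (2 control, 1 N-TAF). It was at 1.17 CPM or less in the other 17. Ddx3y, a gene of the Y chromosome, was at 0.0412 CPM or less in those 3 and at 67.8 CPM or more in the other 17. These are the patterns of female and male mice, and no sex is given in the labels used here. Ttr, the main secreted protein of choroid plexus, reached 907 CPM in controls, 440 CPM in C/N-TAF and 3417 CPM in N-TAF libraries. Ambn, an enamel gene, was detected at 2.03 CPM or above in 5 control, 3 C/N-TAF and 3 N-TAF libraries and at no more than 0.0758 CPM in the others. The rank correlation of a library's deviations with transcript length ran from -0.517 to 0.528 over the 20 libraries, with C/N-TAF library 1 at the upper end, against -0.711 in the library left out.

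The targeted gene was looked at first. Taf1 (ENSMUSG00000031314) was at 98.8 ± 5.68 CPM in controls (SD, n = 8) and at 98.7 ± 5.56 CPM in the 12 miRNA libraries. Control libraries ran from 87.1 to 104 CPM with a median of 101. The 4 C/N-TAF libraries had 102, 96.1, 102 and 105 CPM, and the N-TAF libraries ran from 84.0 to 104 CPM with a median of 99.7. The 3 groups overlapped almost entirely. The log2 fold change of either miRNA against control was -0.00037 (SE 0.040, 95% interval -0.080 to 0.079, adjusted p = 0.998 by edgeR's quasi-likelihood test with Benjamini-Hochberg adjustment). It was 0.04 for C/N-TAF and -0.02 for N-TAF. Counts add all transcripts of a gene, so the share of the neuronal form is not known, and groups are named by their labels.

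The other TFIID subunits were counted next. Of 17 subunits tested, Taf1 included, 0 passed at an adjusted p under 0.05 and 0 at an unadjusted p under 0.05 by edgeR, and their log2 fold changes ran from -0.09 to 0.06 with a median of -0.01, against 0.0025 over all 18643 genes tested. Tbp, which binds the TATA box, was at -0.04, and Taf9b and Taf6, histone-fold subunits, were at 0.06 and -0.06. Among 16 other initiation factors of RNA polymerase II, 3 were higher and 0 lower at an unadjusted p under 0.05. Of all genes, 4.92% were higher and 4.8% lower at that p. The smallest adjusted p of these factors was 0.436 by edgeR, and 9 of the 16 lay below 0, with a median of -0.0026. Gtf2h1, a TFIIH subunit, was at 0.09 and Gtf2f1, a TFIIF subunit, at 0.10.

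Few single genes passed the test. At an adjusted p under 0.05, 4 genes were lower in the miRNA libraries (0.0215% of those tested) and 0 were higher (0%) by edgeR. At an unadjusted p under 0.05, 894 genes were lower (4.8%) and 918 were higher (4.92%), while 932 in all would be a share of 0.05 of the genes tested. DESeq2's Wald test called 32 lower and 7 higher, and limma-voom called 8 lower and 0 higher. Of the 1812 genes at an unadjusted p under 0.05, 1736 lay on the same side of the control in both miRNA groups, 857 lower and 879 higher. Both groups were measured against the same 8 controls, so this share follows largely from the pooling. Each group alone against those controls gave 0 called genes higher (0%) and 0 lower (0%) for C/N-TAF, with 1116 at an unadjusted p below 0.05. For N-TAF there were 65 higher (0.349%) and 136 lower (0.729%).

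All 4 called genes fell, in both groups. Abcc9 encodes the regulatory subunit of the potassium channel of pericytes, Abcb1a the drug efflux pump P-glycoprotein of brain capillaries, Tns1 a tensin that links integrins to actin, and Ltbp4 a protein that holds latent TGF-beta in the extracellular matrix. Each was also called for N-TAF alone, and for none did the C/N-TAF and N-TAF libraries differ at an adjusted p under 0.05.

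Abcc9 (ENSMUSG00000030249) ran from 13.4 to 15.8 CPM in controls, with a median of 14.1. The C/N-TAF libraries had 13.5, 9.80, 13.1 and 10.9 CPM, and the N-TAF libraries ran from 8.96 to 11.4 CPM with a median of 9.80. All miRNA libraries except C/N-TAF library 1 lay below every control. The mean fell from 14.3 ± 0.772 CPM (SD, n = 8) to 10.6 ± 1.495 CPM (n = 12), a log2 fold change of -0.43 (SE 0.072, adjusted p = 0.0262, edgeR), and it was -0.27 for C/N-TAF and -0.51 for N-TAF.

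Abcb1a (ENSMUSG00000040584) ran from 39.0 to 44.9 CPM in controls, with a median of 41.0. The C/N-TAF libraries had 40.2, 32.5, 35.7 and 26.9 CPM, and the N-TAF libraries ran from 27.2 to 36.4 CPM with a median of 29.8. Again only C/N-TAF library 1 reached the range of the controls. This was a log2 fold change of -0.38 (SE 0.064, adjusted p = 0.0262, edgeR), with -0.30 for C/N-TAF and -0.42 for N-TAF. Abcb1a has a close paralog, Abcb1b, and the counting of reads that fit both is not given in the sources used here.

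Tns1 (ENSMUSG00000055322) ran from 73.8 to 85.8 CPM in controls, with a median of 77.8. The C/N-TAF libraries had 71.3, 64.5, 68.9 and 62.2 CPM, and the N-TAF libraries ran from 56.7 to 70.7 CPM with a median of 68.2. All 12 miRNA libraries lay below every control, so the groups did not overlap. The decrease was the smallest of the 4, at -0.24 (SE 0.041, adjusted p = 0.0262, edgeR), and the most alike in both groups, with -0.23 for C/N-TAF and -0.24 for N-TAF.

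Ltbp4 (ENSMUSG00000040488) ran from 32.8 to 42.1 CPM in controls, with a median of 37.6. The C/N-TAF libraries had 31.4, 31.2, 29.9 and 29.5 CPM, and the N-TAF libraries ran from 23.0 to 34.3 CPM with a median of 29.0. All 4 C/N-TAF and 6 of the 8 N-TAF libraries lay below every control. Its decrease was -0.36 on the log2 scale (SE 0.066, adjusted p = 0.0414, edgeR), with -0.29 for C/N-TAF and -0.39 for N-TAF.

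**Figure D1:**
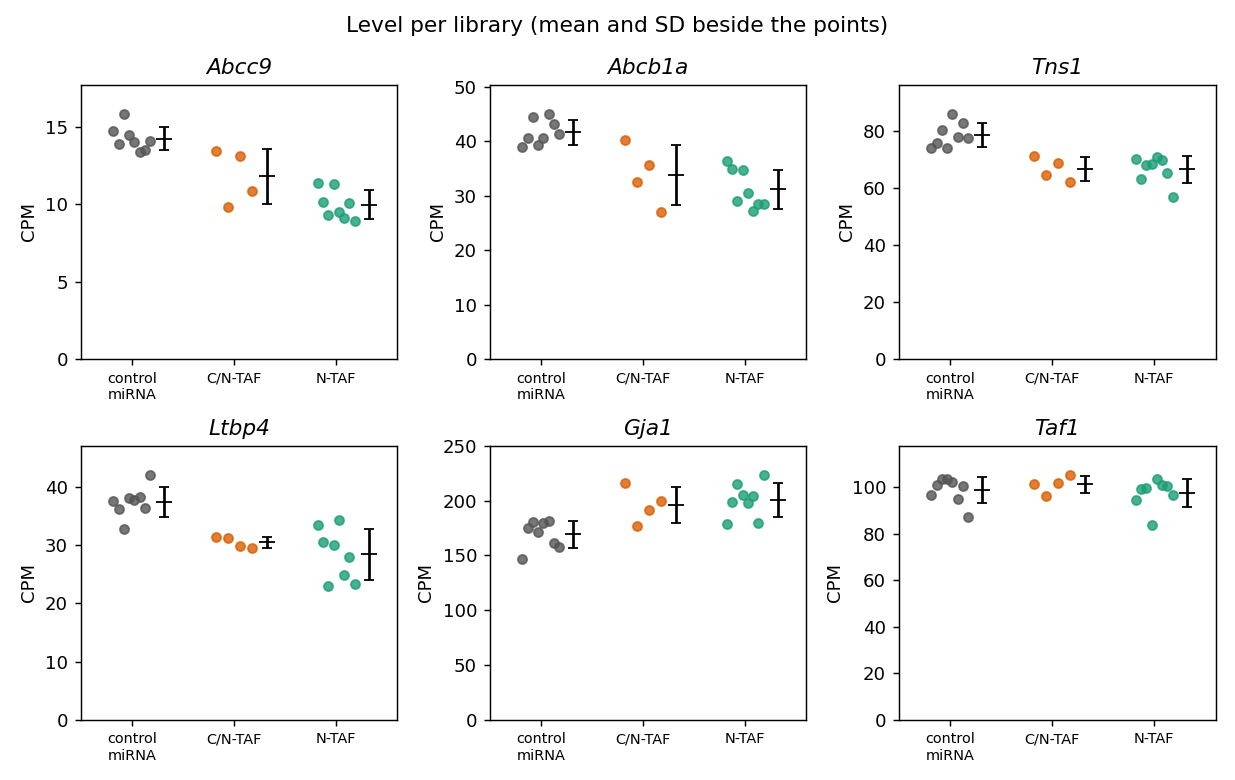
Level of the 4 called genes, Gja1 and Taf1 in CPM (linear axes from 0), 1 point per library in the control, C/N-TAF and N-TAF groups, with the mean and SD as a bar beside each group. For Tns1 all 12 miRNA libraries lie below every control, for Abcc9 and Abcb1a 11 do and for Ltbp4 10, while the groups overlap for Taf1.

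The calls rested on small margins. Leaving out any 1 of control libraries 2, 3, 5, 6, 7 and 8, C/N-TAF library 5 or N-TAF libraries 2 and 7 left 0 genes called lower, leaving out C/N-TAF library 1 gave 18, and leaving out N-TAF library 1 gave 10. Without the 3 libraries of high Xist 2 genes were called lower, and with the length-biased C/N-TAF library 2 put back 0 were. The fold changes moved little in all of these, from -0.49 to -0.39 for Abcc9 and from -0.27 to -0.22 for Tns1.

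The promoters of the called genes are shown because TFIID acts at the core promoter. The 250 bases before the start of transcription are given 5′ to 3′ from the RefSeq table for the mouse build GRCm38.p6, which is not necessarily the build of the counts. Capitals mark copies of TATAAA (the TATA box that TBP binds), GGGCGG (the GC box) and CAGGAA (a core that ETS factors bind), searched on both strands, and no copies of different motifs overlapped. Abcc9 lies at chr6:142702275-142702524 on the minus strand, Tns1 at chr1:74124549-74124798 on the minus strand, and Ltbp4, for 1 of its 3 starts in the table, at chr7:27333649-27333898 on the minus strand. The entry for Abcb1a starts 92986 bases from the nearest GENCODE vM21 start of that gene and is not printed.
Abcc9: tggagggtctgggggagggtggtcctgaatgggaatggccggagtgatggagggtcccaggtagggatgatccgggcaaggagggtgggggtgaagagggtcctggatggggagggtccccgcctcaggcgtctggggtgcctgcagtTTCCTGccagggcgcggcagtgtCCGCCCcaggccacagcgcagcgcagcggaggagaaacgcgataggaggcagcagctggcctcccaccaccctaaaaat
Tns1: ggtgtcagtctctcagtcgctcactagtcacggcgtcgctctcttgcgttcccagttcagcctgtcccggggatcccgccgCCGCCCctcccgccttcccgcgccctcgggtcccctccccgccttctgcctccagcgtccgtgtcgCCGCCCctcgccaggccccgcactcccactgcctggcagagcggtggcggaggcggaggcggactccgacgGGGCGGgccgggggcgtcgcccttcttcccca
Ltbp4: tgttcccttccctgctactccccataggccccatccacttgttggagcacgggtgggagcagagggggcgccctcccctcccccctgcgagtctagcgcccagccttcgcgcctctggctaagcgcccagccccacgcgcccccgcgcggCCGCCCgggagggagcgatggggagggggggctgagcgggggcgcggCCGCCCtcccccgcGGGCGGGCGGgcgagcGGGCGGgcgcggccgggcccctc

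TATAAA was found 0 times in these 3 stretches. The GC box GGGCGG was present once upstream of Abcc9, 3 times upstream of Tns1 and 5 times upstream of Ltbp4, 2 of them sharing bases, and CAGGAA once upstream of Abcc9. Of 12759 tested genes with an entry in the table, 8.48% held TATAAA, 59.7% GGGCGG and 26.2% CAGGAA in this window. Among 594 such genes that were lower at an unadjusted p under 0.05 the shares were 7.24%, 62.8% and 29.0%, and among 651 that were higher they were 8.45%, 59.1% and 25.0%. TATAAA on the coding strand in the last 50 bases before the start was found for 1.91% of all, 1.68% of the lower and 1.84% of the higher genes. A match is a match of letters only, and no site was measured.

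Several of the lower genes next in order of p belong to brain vessels. Just outside the threshold were Car4, a membrane-bound carbonic anhydrase of capillaries (-0.47, adjusted p = 0.0602), Slco1a4, a carrier of organic anions at the capillary wall (-0.39, adjusted p = 0.0602), Cyyr1, a small membrane protein (-0.57, adjusted p = 0.0602), and Fn1, fibronectin (-0.46, adjusted p = 0.062), all by edgeR. Sox17, a transcription factor of arterial endothelium (-0.66), and Kcp, a secreted modulator of BMP signals (-0.64), followed, both with an adjusted p of 0.121. Side by side, C/N-TAF and N-TAF gave -0.51 and -0.45 for Car4, -0.32 and -0.42 for Slco1a4, -0.35 and -0.69 for Cyyr1, -0.52 and -0.42 for Fn1, -0.59 and -0.70 for Sox17, and -0.40 and -0.78 for Kcp. For Fn1, control libraries ran from 31.8 to 45.8 CPM, the C/N-TAF libraries had 35.1, 25.1, 25.1 and 21.2 CPM, and N-TAF libraries ran from 22.5 to 34.5 CPM. Of the 12 miRNA libraries, 9 lay below every control for Fn1, 11 for Cyyr1 and Kcp, 10 for Slco1a4, and 8 for Car4 and Sox17.

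**Figure D2:**
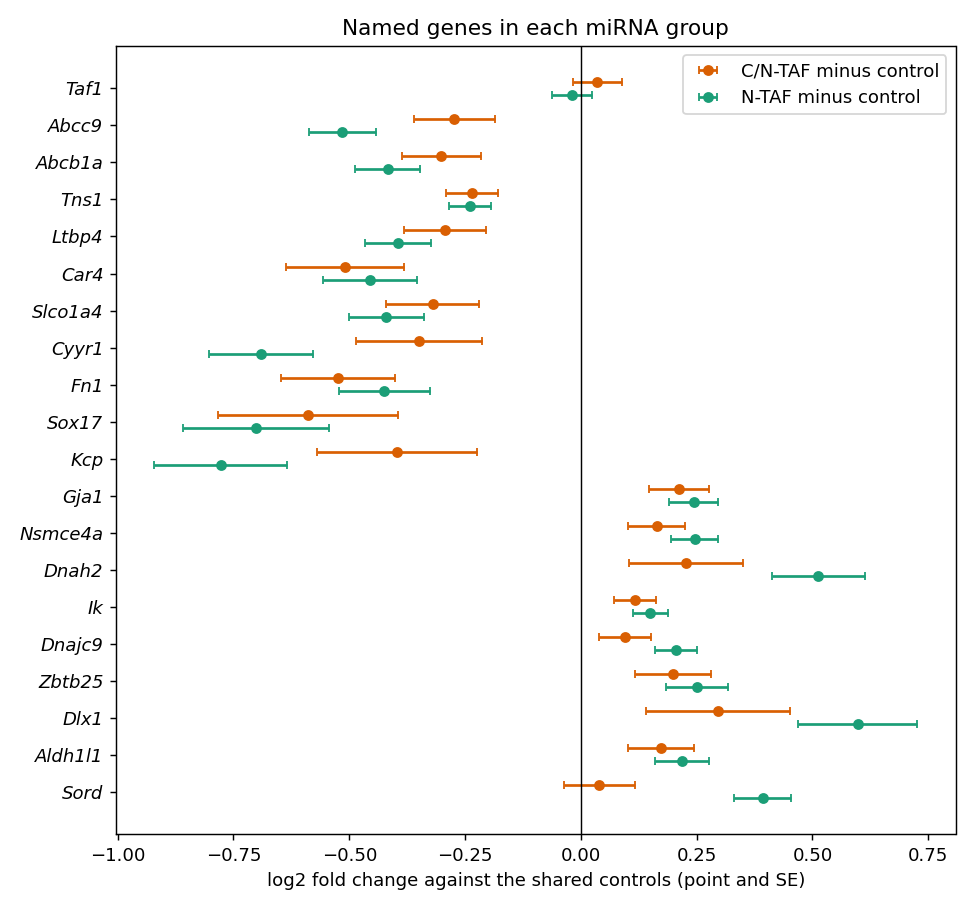
Log2 fold change against the 8 shared controls in C/N-TAF (n = 4) and N-TAF (n = 8) libraries, with bars for 1 SE, for Taf1 and for 10 lower and 9 higher genes of smallest p. The 10 lower genes lie between -0.78 and -0.23 in both groups, and of the higher genes Sord is at 0.04 in C/N-TAF and 0.39 in N-TAF.

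Endothelial genes were lower as a group in both miRNA groups. Of 16 endothelial genes tested, 1 was called (Abcb1a) and 16 of 16 were lower at an unadjusted p under 0.05, beside 4.8% of all genes tested. Their log2 fold changes ran from -0.66 to -0.26, with a median of -0.37, against 0.0025 over all genes. The median was -0.30 for C/N-TAF and -0.40 for N-TAF. Kdr, the main VEGF receptor of these cells, ran from 10.4 to 18.2 CPM in controls. It was at 11.2, 9.68, 12.7 and 8.39 CPM in C/N-TAF and from 7.60 to 12.2 CPM in N-TAF libraries, and 7 of the 12 lay below every control (log2 fold change -0.44, adjusted p = 0.137, edgeR).

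The level of the whole endothelial list, the mean over its genes of log2 CPM after subtracting the control mean, ran from -0.13 to 0.12 in control libraries. It ran from -0.56 to -0.19 in C/N-TAF and from -0.67 to -0.15 in N-TAF libraries. All 12 miRNA libraries lay below every control, in a list chosen with earlier results of these data known, so no test is given. The count at an unadjusted p under 0.05 was 14 to 16 when any 1 library was left out, 14 without the 3 libraries of high Xist and 11 with C/N-TAF library 2 put back, and the median stayed between -0.42 and -0.35 in all alternatives. Hbb-bs, a red cell transcript, had group medians of 3.73 CPM in control, 12.4 CPM in C/N-TAF and 3.70 CPM in N-TAF libraries, and its part in the result was not tested. In C/N-TAF library 1 it was at 0.114 CPM, and in the other 3 of that group at 12.4 CPM or more. In bulk tissue, fewer vessel cells and less RNA of these genes per cell cannot be told apart.

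Genes of the cells that wrap the vessels lay on the same side. Of 12 pericyte and smooth muscle genes tested, 8 were lower at an unadjusted p under 0.05 (4.8% of all genes were) and 0 were higher. The median was -0.25, with -0.20 for C/N-TAF and -0.28 for N-TAF. Beside Abcc9, the smallest p-values were those of Notch3, the Notch receptor of mural cells (-0.26, adjusted p = 0.137, edgeR), Pdgfrb, the receptor that recruits pericytes (-0.18, adjusted p = 0.257), and Vtn, vitronectin (-0.22, adjusted p = 0.293). Notch3 ran from 27.1 to 33.2 CPM in controls. It was at 24.4, 24.9, 27.0 and 26.5 CPM in C/N-TAF libraries, all below every control, and from 19.9 to 29.97 CPM in N-TAF libraries. The list level ran from -0.13 to 0.13 in controls, from -0.34 to -0.13 in C/N-TAF and from -0.37 to -0.05 in N-TAF libraries, and 11 of the 12 miRNA libraries lay below every control.

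**Figure D3:**
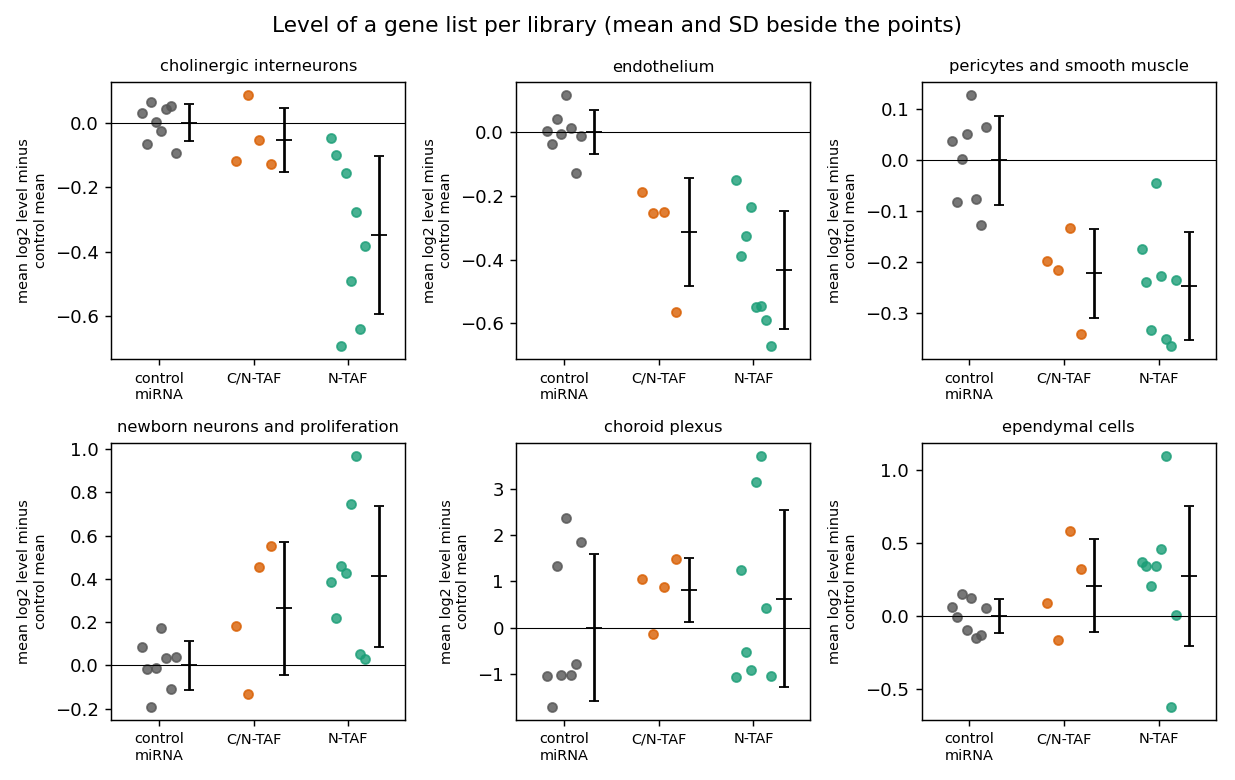
Level of 6 gene lists per library (mean log2 CPM of the list's genes minus the control mean), 1 point per library, with the mean and SD beside each group. The endothelial level is below every control in all 12 miRNA libraries and the pericyte and smooth muscle level in 11, while newborn neuron genes are above every control in 3 C/N-TAF and 6 N-TAF libraries and cholinergic genes are below every control in 2 C/N-TAF and 7 N-TAF libraries.

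To see which vessel functions this took in, 100 vascular genes were chosen and sorted by role, both after the values were seen. They include genes already named for their small p, among them Abcc9, Abcb1a, Slco1a4, Fn1 and Sox17. Their counts are therefore a description and no separate support. Of the 100 genes, 87 were lower and 13 higher, and 80 were lower in both miRNA groups. Over all genes tested, 51.0% had a log2 fold change above 0. At an unadjusted p under 0.05, 56 were lower and 1 higher, beside 4.8% lower and 4.92% higher of all genes. Among endothelial receptors, 12 of 12 were lower at an unadjusted p under 0.05, with a median of -0.39. They included Eng, a TGF-beta co-receptor (-0.45), Adgrl4, an adhesion receptor of angiogenic endothelium (-0.33), and Kdr. Eng ran from 18.5 to 23.9 CPM in controls, from 13.7 to 18.3 CPM in C/N-TAF and from 10.6 to 21.8 CPM in N-TAF libraries, and 10 of the 12 miRNA libraries lay below every control.

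The other roles gave these counts, beside 4.8% of all genes that were lower at an unadjusted p under 0.05. Of transporters of the barrier 6 of 10 were lower at an unadjusted p under 0.05, among them Slc2a1, the glucose transporter of the barrier (-0.32), whose human gene causes a paroxysmal movement disorder. Of transcription factors 7 of 12 were, and of junction proteins 4 of 8, including Cldn5, the main claudin of brain endothelium (-0.50). Of pericyte genes 8 of 11 were, of smooth muscle genes 4 of 8 and of basement membrane genes 6 of 9, including Col4a1 (-0.27), a collagen IV chain, and Nid1 (-0.38), nidogen. Of the 12 miRNA libraries, 3 lay below every control for Cldn5, 4 for Slc2a1, 6 for Col4a1 and 11 for Nid1. The adjusted p was 0.316 for both Cldn5 and Slc2a1 by edgeR. Genes of arteries (1 of 8), veins (2 of 6) and fibroblasts (2 of 8) were also counted, with medians of -0.17, -0.13 and -0.12, and the difference between roles was not tested. Tfrc, another barrier transporter, lay on opposite sides of the control, at -0.26 for C/N-TAF and 0.20 for N-TAF. The miRNA groups differed for it (adjusted p = 0.0313, edgeR).

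Of 8 ligands that act on vessels, 7 were lower and 1 was higher, with a median of -0.21. Of the 7, 4 were at an unadjusted p under 0.05, beside 4.8% of all genes lower at that p. Cxcl12, a chemokine made by endothelium and other cells, was at -0.58, Pdgfb, the endothelial ligand of Pdgfrb, at -0.25, Vegfa, the ligand of Kdr, at -0.18, and Dll4, a Notch ligand of sprouting endothelium, at -0.48, and these are the 4. Jag2, Apln and Angpt2 were the other lower ligands. Angpt1, the ligand of the receptor Tek made by mural cells, was higher (0.50), with -0.06 for C/N-TAF and 0.72 for N-TAF. Cxcl12 ran from 49.1 to 74.2 CPM in controls, and it was at 50.9, 53.9, 47.2 and 34.8 CPM in C/N-TAF and from 30.3 to 54.5 CPM in N-TAF libraries. Of the 12 miRNA libraries, 8 lay below every control for Cxcl12.

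**Figure D4:**
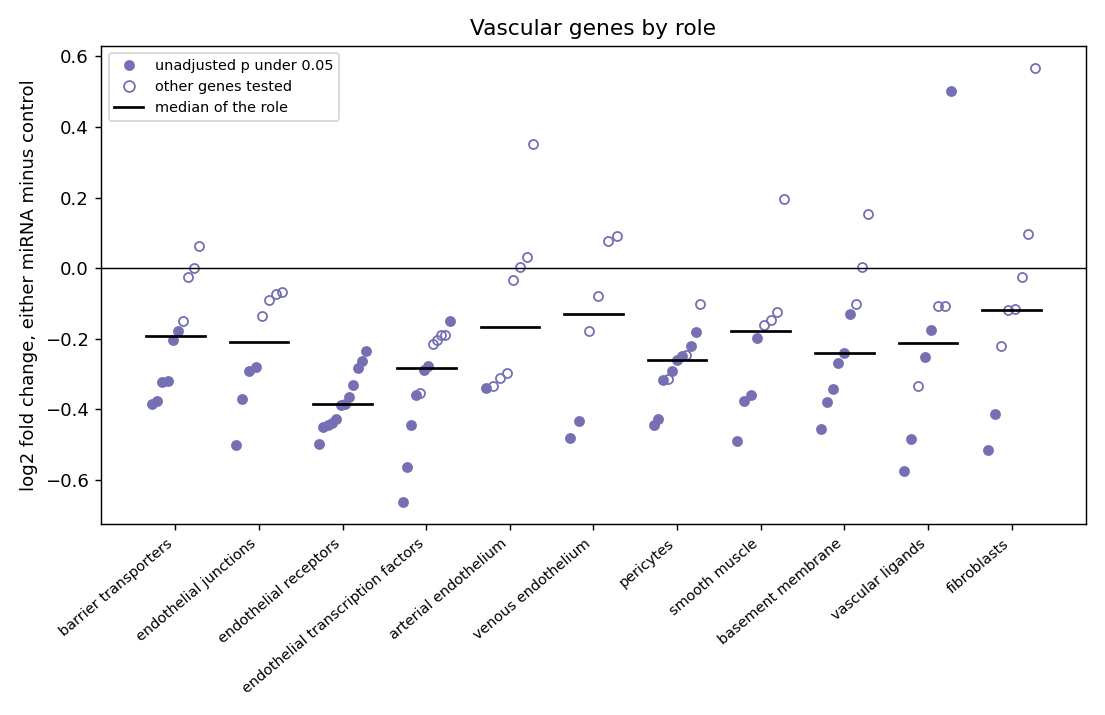
Log2 fold change of either miRNA against control for 100 vascular genes in 11 roles, 1 point per gene, filled at an unadjusted p under 0.05, with a line at the median of the role. Receptors lie entirely below 0 with a median of -0.39, as do endothelial transcription factors, junction proteins and pericyte genes with medians of -0.28, -0.21 and -0.26. The highest filled point is the ligand Angpt1 at 0.50.

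Signalling pathways that act in vessels and elsewhere were counted in the same way. At an unadjusted p under 0.05, 4.8% of all genes were lower and 4.92% higher. In the BMP and TGF-beta pathway 5 of 19 genes were lower and 0 higher at an unadjusted p under 0.05, with a median of -0.03, and the 4 of smallest p were Kcp, Eng, Tgfb1 (-0.27) and the receptor Tgfbr2 (-0.15). In the Notch pathway 3 of 15 were lower and 0 higher, Notch4 (-0.36), Nrarp (-0.40), a feedback inhibitor, and Dll4, with a median of -0.07. Nrarp was at -0.11 for C/N-TAF and -0.57 for N-TAF. Notch3 was counted with the pericyte and smooth muscle genes and not in this list. Notch4, Dll4 and Eng are themselves genes of endothelium and stand among the 100 vascular genes. In the Wnt pathway 2 of 16 genes were lower and 2 higher, with a median of 0.01. Of 16 genes of collagens and fibroblast matrix, 5 were lower and 1 higher, with a median of -0.11 that was -0.03 without control library 5, -0.07 without C/N-TAF library 4, -0.20 without the 2 libraries of highest Ttr and -0.20 with equal weight on both miRNA groups. The median was -0.27 for C/N-TAF and 0.03 for N-TAF. The list levels of these groups overlapped, from -0.40 to -0.13 and from -0.34 to 0.05, and 1 of the 16 genes, Sfrp4, a secreted Wnt inhibitor named after its values were seen, differed between them (adjusted p = 0.0341, edgeR).

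On the side of higher genes, none passed the adjusted test. Astrocyte genes as a list were divided, since of 14 tested 9 were higher and 5 lower, 3 were higher at an unadjusted p under 0.05 (4.92% of all genes were), and the median was 0.06, with 0.0008 for C/N-TAF and 0.08 for N-TAF. Gja1, connexin 43 of astrocytes, ran from 147 to 181 CPM in controls. It was at 216, 177, 192 and 200 CPM in C/N-TAF and from 179 to 223 CPM in N-TAF libraries, and 9 of the 12 miRNA libraries lay above every control. Its log2 fold change was 0.23 (SE 0.049, adjusted p = 0.121, edgeR), with 0.21 for C/N-TAF and 0.24 for N-TAF. Nsmce4a, a subunit of the SMC5/6 complex, had the same adjusted p of 0.121 (0.22), and 10 of the 12 libraries lay above every control. Aldh1l1, an astrocyte enzyme of folate metabolism, was at 0.20, Dnah2, a dynein of motile cilia, at 0.42 and Dlx1, a transcription factor of interneurons and their precursors, at 0.50. Ik, a splicing factor, was at 0.14, Dnajc9, a histone chaperone, at 0.17 and Zbtb25, a zinc finger protein, at 0.23, with adjusted p-values of 0.283 to 0.293 by edgeR for these 3.

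Sord, sorbitol dehydrogenase, met the rule with the same sign in both groups but differed between them. Control libraries ran from 15.9 to 20.04 CPM, the C/N-TAF libraries had 16.6, 19.6, 18.4 and 17.9 CPM, and the N-TAF libraries ran from 19.6 to 27.7 CPM. The C/N-TAF libraries lay within the controls, and 7 of the 8 N-TAF libraries lay above them. The log2 fold change was 0.04 for C/N-TAF and 0.39 for N-TAF, and their difference of -0.35 passed the test (adjusted p = 0.0313, edgeR).

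Most genes of newborn neurons and dividing precursors lay above the control. Of 14 tested, 12 were higher in both groups, 10 were higher and 0 lower at an unadjusted p under 0.05, beside 4.92% of all genes, and 0 were called. The median was 0.43, with 0.31 for C/N-TAF and 0.47 for N-TAF. The smallest p-values belonged to Dlx1, Sp8 (1.1), a transcription factor of olfactory interneuron precursors, Dcx (0.51), a microtubule protein of migrating neuroblasts, and Sox11 (0.44), with adjusted p-values of 0.293 to 0.316 by edgeR. Dcx ran from 31.4 to 38.4 CPM in controls. It was at 43.2, 31.9, 48.3 and 51.1 CPM in C/N-TAF and from 41.0 to 79.1 CPM in N-TAF libraries, and 11 of the 12 miRNA libraries, all but C/N-TAF library 3, lay above every control.

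The list level ran from -0.19 to 0.17 in controls, from -0.13 to 0.55 in C/N-TAF and from 0.03 to 0.97 in N-TAF libraries. C/N-TAF library 3 was the miRNA library below the control mean. Tubb3 and Stmn1, which mature neurons also express, were at 0.02 and 0.03, with -0.03 and -0.08 for C/N-TAF. Without the 2 libraries of Ttr above 1000 CPM the count at an unadjusted p under 0.05 was 8 with a median of 0.29, and without the 3 libraries of high Xist it was 7.

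Genes of the ventricle wall lay on the same side. Of 10 ependymal genes tested, 5 were higher and 0 lower at an unadjusted p under 0.05, beside 4.92% higher of all genes. Their median was 0.34, with 0.23 for C/N-TAF and 0.39 for N-TAF. The median was 0.20 without the 2 libraries of highest Ttr and 0.23 without N-TAF library 6. Cfap43 (0.44) and Ak7 (0.36), both of motile cilia, had the smallest p-values. Ak7 ran from 6.20 to 8.72 CPM in controls, was at 10.5, 6.52, 12.2 and 9.60 CPM in C/N-TAF and ran from 4.86 to 15.2 CPM in N-TAF libraries, and 10 of the 12 lay above every control. The ependymal level ran from -0.15 to 0.15 in controls, from -0.16 to 0.58 in C/N-TAF and from -0.63 to 1.10 in N-TAF libraries.

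Choroid plexus genes varied far more between libraries of 1 group. Of 12 tested, 0 were at an unadjusted p under 0.05 by edgeR, and none was at 0 in any library. Their level ran from -1.71 to 2.38 in controls, from -0.14 to 1.48 in C/N-TAF and from -1.05 to 3.72 in N-TAF libraries. The median log2 fold change of 0.76 became -0.35 without the 2 libraries of highest Ttr. How much ventricle wall the dissections held was not tested as a part of the newborn neuron result.

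**Figure D5:**
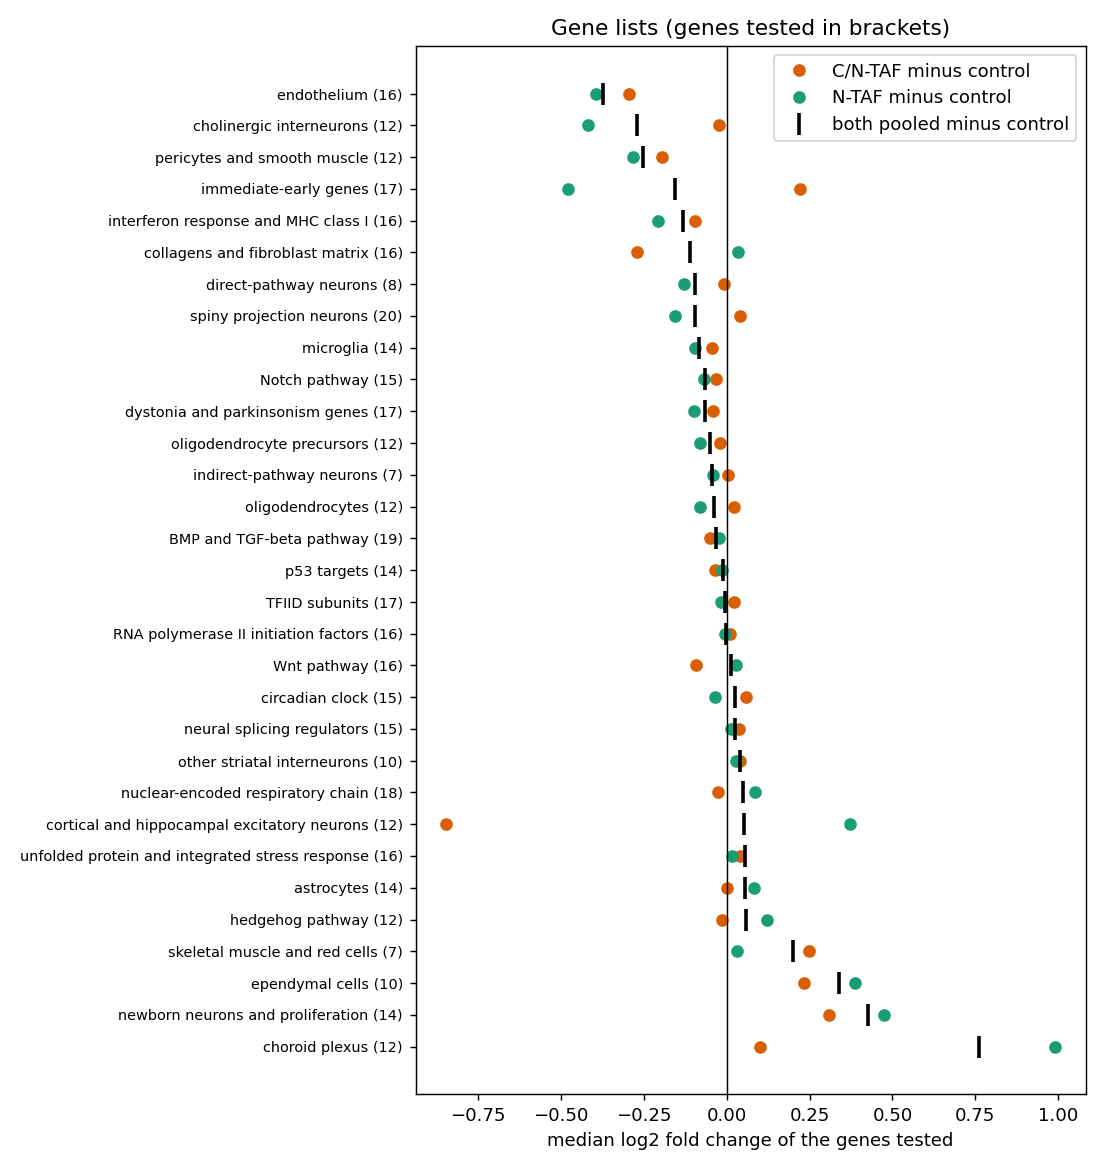
Median log2 fold change of the tested genes of each of 31 lists for C/N-TAF, N-TAF and both pooled, against the 8 shared controls, with the number of genes tested in brackets. Endothelium (-0.30 and -0.40) and newborn neurons (0.31 and 0.47) lie on 1 side in both groups, while immediate-early genes (0.22 and -0.48) and cortical genes (-0.85 and 0.37) lie on opposite sides.

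Some lists had medians that differed between the groups, and the difference of a list was not tested. The 2 miRNA groups differed from each other in 87 genes higher in C/N-TAF (0.467%) and 30 lower (0.161%) at an adjusted p under 0.05 by edgeR. This total of 117 genes became 4 without C/N-TAF library 1 and 0 with C/N-TAF library 2 put back. Of 12 cholinergic interneuron genes 7 were lower at an unadjusted p under 0.05 in the pooled comparison (4.8% of all genes were). The pooled count at that p was 2 without the 3 libraries of high Xist. Of the 12, 7 were lower in both groups. The median was -0.27 pooled, -0.02 for C/N-TAF and -0.42 for N-TAF. For N-TAF alone, 7 of the 12 were called lower at an adjusted p under 0.05 by edgeR, beside 0.729% of all genes. For C/N-TAF alone 0 were called. Slc5a7, the choline transporter, ran from 43.4 to 52.6 CPM in controls and was at 50.8, 47.2, 43.9 and 47.2 CPM in C/N-TAF and from 21.6 to 45.2 CPM in N-TAF libraries. All 4 C/N-TAF libraries lay within the controls, and no cholinergic gene differed between the miRNA groups at an adjusted p under 0.05.

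Genes common to spiny projection neurons had a median of -0.09, with 0.04 for C/N-TAF and -0.16 for N-TAF. Of 20, 4 were lower at an unadjusted p under 0.05 (4.8% of all genes were). Itpr1 (-0.17), the calcium release channel, and Adcy5 (-0.13) came first. Gli1, the transcription factor and target of hedgehog signals, ran from 1.08 to 2.43 CPM in controls, was at 1.41, 1.24, 1.07 and 1.47 CPM in C/N-TAF and ran from 2.37 to 5.43 CPM in N-TAF libraries. The miRNA groups did not overlap, and the difference between them was -1.53 on the log2 scale (adjusted p = 0.00428, edgeR). Slc25a18, a mitochondrial glutamate carrier of astrocytes, was at 0.06 for C/N-TAF and 0.82 for N-TAF (adjusted p of the difference 0.0367). Klf2, a flow-responsive factor of endothelium, was at -0.0045 and -0.73 (adjusted p of the difference 0.0499), the only gene of the 16 endothelial genes that differed between the groups.

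Of 17 genes of dystonia and parkinsonism, 4 were lower and 1 higher at an unadjusted p under 0.05, with a median of -0.07. The lower genes of smallest p were Slc2a1, Tubb4a (-0.17), a tubulin of oligodendrocytes and neurons, and Adcy5. Microglia (3 of 14 lower), oligodendrocytes (0 of 12), oligodendrocyte precursors (1 of 12), circadian clock genes (0 of 15), p53 targets (1 of 14 lower), interferon response genes (0 of 16), neural splicing regulators (2 of 15 higher), the unfolded protein response (3 of 16 higher) and the respiratory chain (2 of 18 higher) held these counts at an unadjusted p under 0.05, beside 4.8% lower and 4.92% higher of all genes, with medians between -0.13 and 0.05.

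The library left out for its dependence on transcript length (rank correlation -0.711) is given as values only. C/N-TAF library 2 had 4.98 CPM for Abcc9, 25.5 for Abcb1a, 45.8 for Tns1 and 30.6 for Ltbp4, all below every control. Car4, at 12.8 CPM, lay above every control, and Taf1 was at 50.8 CPM. The part of transcript length in these values was not tested.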

How the data were processed

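Total RNA of mouse striatum was sequenced on an Illumina NovaSeq instrument, per the labels' protocols. The authors deposited raw read counts per Ensembl gene, 1 column per animal. STAR, featureCounts and edgeR are named in the submitters' processing notes without versions. These notes name the human build GRCh38, although the rows carry mouse identifiers, so the build is unsettled. Annotation release and strandedness are not given in the labels, which leaves genes that overlap on either strand uncertain. Of 54532 rows, 54409 matched a symbol, and the 123 others took 0.0704% of the counts. Groups come from the injection label. The description field carries the same control tag for all mice and was not used. Libraries are numbered in the order of the records.

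Counts entered edgeR 4.0.16 (limma 3.58.1, R 4.3.3) with filterByExpr, TMM scaling and robust quasi-likelihood tests. The main fit had 2 levels (control, either miRNA), and a fit with 3 groups on the same 20 libraries gave each group's values and their difference. Genes were called at an adjusted p under 0.05 (Benjamini-Hochberg, 18643 genes). Levels are TMM-scaled CPM, and list levels use log2 CPM with a prior count of 2. P-values measure the spread between these animals. The median SE of a log2 fold change was 0.0526 for genes at 10 CPM or more. The closest replicate pair differed by 5.91 per degree of freedom in a chi-square test of counts, so none was treated as a duplicate. The procedure was tested on simulated counts. These were drawn independently for each library, without differences in length dependence, sex or dissection, so that test does not bear on such differences.

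The members, the 31 gene lists and the tests were chosen with earlier results of these data known, and the 11 vascular roles and their genes after the values were seen. Named are Taf1, the 10 genes of smallest p per direction (mean of at least 1 CPM, same sign in both groups), and up to 4 genes of smallest p per list described. A gene that the rule takes is not reported here. Tbp, Tubb3, Stmn1, Klf2, Gli1, Ttr, Xist, Ddx3y, Ambn, Hbb-bs and members of the vascular roles were named after their values were seen. Of the list genes, 5 (Mia, Ckm, Hba-a2, Myh4 and Tnnt3) did not pass the filter, and Gpr52 was not matched. Alternatives were DESeq2 1.42.0, limma-voom, other size factors, no filter, library covariates and left-out libraries.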

Additional observations from a re-analysis of the deposited data

Results flagged for a closer look

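Among the 62 genes checked in the 3 groups, 8 of 186 sets of values (4.3%) held a library far from the others by Dixon's gap test, a share close to the 1 in 20 that this test flags where nothing stands apart. Taf1 was at 84.0 CPM in N-TAF library 4, with the next lowest at 94.6. Dnajc9 was at 32.8 CPM in control library 4 and Sp8 at 2.50 CPM in control library 7, each the highest of the controls. Tgfb1 was at 4.22 CPM and Itpr1 at 1255 CPM in C/N-TAF libraries 1 and 3, each the lowest of 4. Hbb-bs was at 0.114 CPM in C/N-TAF library 1, with the next lowest at 12.4. Col4a1 was at 21.3 CPM in N-TAF library 6, the lowest of that group, and the same library had the highest Ttr, at 3417 CPM.

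In 4 of the 62 genes checked, C/N-TAF and N-TAF differed in the same fit at an adjusted p under 0.05 by edgeR. Of all genes tested, 0.467% were higher and 0.161% lower in C/N-TAF than in N-TAF at that threshold. Gli1 and Klf2, which are among the 4, were named after their values were seen, so this count depends in part on that choice. Sfrp4 and Tfrc, which also differed, were not among the 62. The difference (C/N-TAF minus N-TAF, log2) was -0.35 for Sord, -0.76 for Slc25a18, -1.53 for Gli1 and 0.73 for Klf2.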

How the results depend on the processing

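No paired analysis was possible because the labels give no replicate numbers, and those used here follow the order of the records. The counts are given as genes lower, genes higher and genes that differ between the miRNA groups, against 4, 0 and 117 as reported. With C/N-TAF library 2 put back they were 0, 0 and 0, with DESeq2's Wald test 32, 7 and 612, and with limma-voom 8, 0 and 99. With the Ambn class as a covariate 9 genes and with Ttr and Slc17a7 as covariates 10 genes differed between the miRNA groups. Other alternatives were added after seeing the data. Without the 3 libraries of high Xist the counts were 2, 0 and 23 and with the Xist class as a covariate 7, 1 and 62, and without the 2 libraries of highest Ttr 2, 0 and 29. Without 1 library at a time they ran from 0 to 18 (lower), 0 to 3 (higher) and 4 to 382 (differing), with 4 differing without C/N-TAF library 1, 6 without C/N-TAF library 4 and 382 without N-TAF library 1. The cause was not tested. Pericyte genes at an unadjusted p under 0.05 ran from 7 to 9, newborn neuron genes from 8 to 12 and cholinergic genes from 6 to 9 without 1 library, and cholinergic genes were 2 without high Xist. Taf1, near 0, changed sign to 0.0085 with equal weight to both groups and to 0.020 with the length covariate, and ran from -0.024 to 0.016 without 1 library. Of the 19 genes named with it, 0 changed sign in any alternative.

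Depth limits low genes most, since Kcp, Gli1 and Angpt1 rest on under 6 CPM. The C/N-TAF group has 4 libraries, and a p that missed the threshold there does not show that a gene equalled the control.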
